A study of Homo sapiens with 6 samples.

Results

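The epithelial keratins of HCT116 cells were examined, a set of 8 genes chosen by symbol. They comprised the type II keratins KRT7, KRT8 and KRT80 and the type I keratins KRT15, KRT18, KRT19, KRT20 and KRT23, and all 8 were found among the 62492 genes listed for each library. HCT116 is a human colorectal carcinoma cell line. Cells labelled WT received the control siRNA (siControl), and cells labelled as NONO knockdown received an siRNA against NONO (siNONO), each at 20 nM with a lipid reagent. Polyadenylated RNA was sequenced from 3 libraries per group, labelled Set 1, Set 2 and Set 3. A single siNONO duplex was used, so the loss of NONO and other effects of that duplex cannot be told apart. NONO is a nuclear RNA-binding protein of paraspeckles, and the study asked which transcripts change when it is reduced.

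Keratins are the intermediate filament proteins of epithelial cells. Each filament is built from pairs of 1 type I and 1 type II protein, so neither type makes filaments alone. KRT8 with KRT18 is the basic pair of simple epithelia such as the colon, where KRT19 is a further type I partner and KRT20 marks differentiated cells near the gut lumen. KRT7 is more usual in ductal and glandular epithelia, KRT15 in basal cells of stratified epithelia, and KRT80 is a type II keratin found in many epithelia. Filaments are anchored at desmosomes and hemidesmosomes through linker proteins of the plakin family.

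The estimated counts per library summed to between 21765393 and 32659002, and the 8 keratins together took between 0.262% and 0.297% of them. NONO itself fell from 502 ± 11.8 to 95.1 ± 5.43 CPM (counts scaled for library size with TMM factors, SD, n = 3 per group), a log2 fold change of -2.40 (adjusted p = 2.47e-13, edgeR). Genes of epithelia were expressed in siControl, with EPCAM, an epithelial adhesion protein, at 191 CPM, and CDH1, the adherens junction cadherin, at 107 CPM. In the siControl libraries, 14 genes of epithelial identity summed to between 1177 and 1198 CPM, and 12 mesenchymal genes to between 269 and 286 CPM. Of the mesenchymal genes, S100A4, named after its values were seen, stood at 184 CPM. The colonic transcription factor CDX2 stood at 14.1 CPM, and its relative CDX1 had 0 counts in every library.

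Of the 8 keratins, 6 were called, 4 higher and 2 lower in siNONO. A call here means an adjusted p no greater than 0.05 in edgeR's quasi-likelihood fit, with Benjamini-Hochberg correction across the 17000 genes tested. KRT20, KRT23, KRT7 and KRT19 rose, and KRT15 and KRT80 fell. KRT8 and KRT18, the pair that is most typical of simple epithelia, did not pass the test. Among all genes tested, 46.6% were called, 23.2% higher and 23.4% lower. On the log2(TPM + 1) scale with limma the calls were split otherwise, with 31.3% of all called genes higher against 49.7% in edgeR's fit, and with 3 keratins higher and 3 lower. In CPM, the libraries of the groups did not overlap for the same 6 keratins, against 47.8% of all genes tested. In TPM, those of KRT19 did overlap. All 8 keratins had enough counts to be tested. Their median log2 fold change was 0.10, against -0.00 for all genes. Since these are bulk samples, a change in the share of cells that express a keratin and a change in RNA per cell cannot be told apart.

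**Figure D1:**
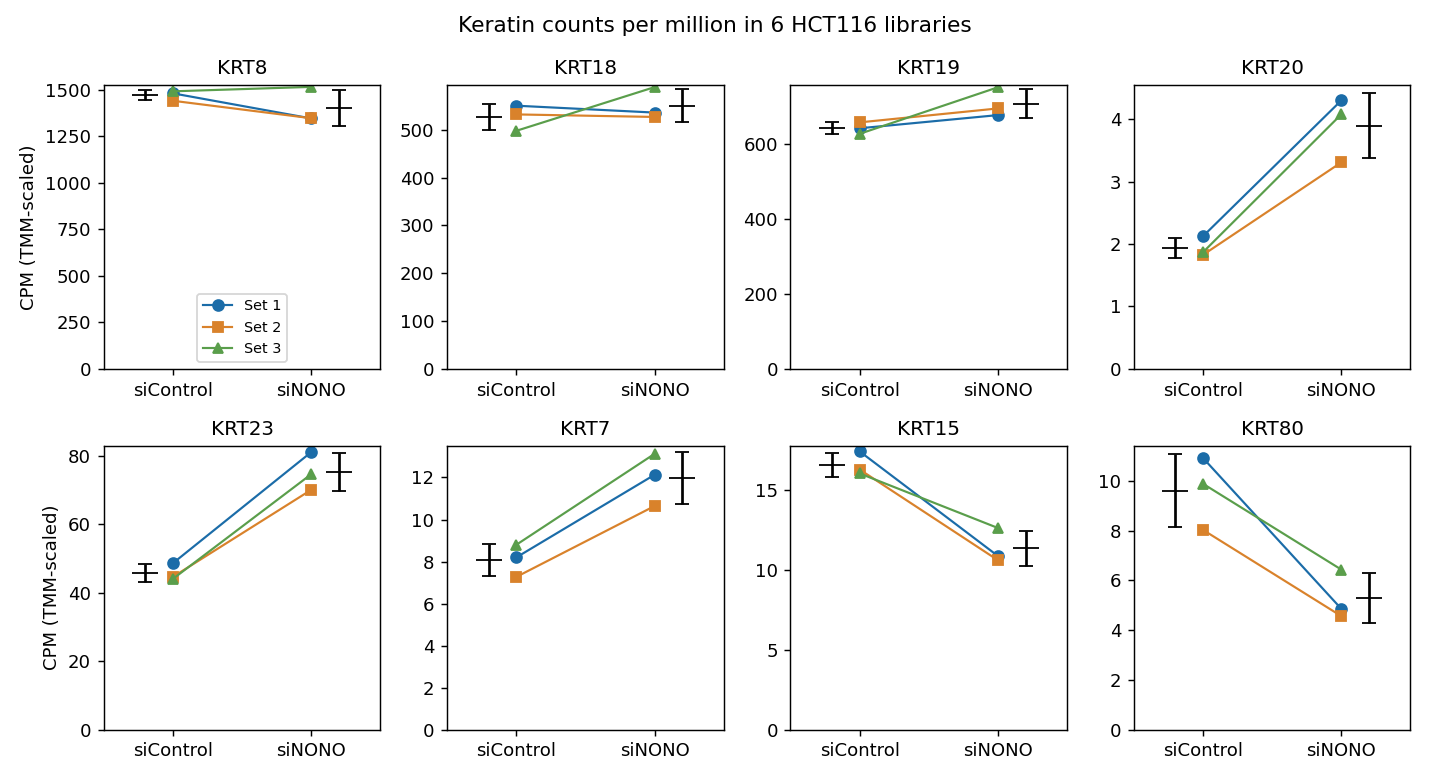
CPM (TMM-scaled, linear axes from 0) of the 8 keratins in 3 siControl and 3 siNONO libraries. Lines join libraries of the same Set, and bars show the mean and SD (n = 3). The siNONO libraries lie above the siControl libraries for KRT19, KRT20, KRT23 and KRT7, below them for KRT15 and KRT80, and overlap them for KRT8 and KRT18.

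KRT8, the type II partner of the simple epithelial pair, had the highest level per length of the 8. It is encoded on the minus strand of chromosome 12 of GRCh37 from 53290971 to 53343738. Its CPM was 1480, 1440 and 1491 in siControl and 1345, 1346 and 1515 in siNONO, for Sets 1, 2 and 3. In CPM, Sets 1 and 2 were lower with siNONO and Set 3 was not, so the groups overlapped. The log2 fold change was -0.07 (95% interval from -0.14 to -0.00) and the adjusted p was 0.0913 (edgeR). The result turned on the scale and on Set 3. In TPM, KRT8 was lower with siNONO in each Set (1281 to 1092, 1198 to 1050 and 1275 to 1206), though the groups overlapped. On log2(TPM + 1) it was called lower at -0.17 (adjusted p = 0.029, limma). Without the siNONO library of Set 3, KRT8 was called lower at -0.12 (adjusted p = 0.000295, edgeR), and without the siControl library of Set 3 at -0.11 (adjusted p = 0.00108).

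KRT18, the type I partner of KRT8, lies beside it on chromosome 12, on the plus strand from 53342655 to 53346690. Its CPM was 550.5, 532 and 498 in siControl and 536, 527 and 589 in siNONO. The groups overlapped, with a log2 fold change of 0.06 (95% interval from -0.04 to 0.16, adjusted p = 0.290, edgeR). Here too the sign came from Set 3, where KRT18 was higher by 0.24, while Sets 1 and 2 stood at -0.04 and -0.01. Without the siNONO or the siControl library of Set 3, the log2 fold change of KRT18 was -0.03 or -0.02, in neither case called.

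Since both partners are read in the same library, their ratio does not depend on the scaling between libraries. The log2 ratio of KRT8 to KRT18 counts was 1.43, 1.44 and 1.58 in siControl and 1.327, 1.353 and 1.362 in siNONO. Every siNONO library lay below every siControl library, and the ratio fell in each Set. The mean difference was -0.13 on the log2 scale (1.48 ± 0.0872 against 1.35 ± 0.0180, SD, n = 3; exact permutation test, two-sided p = 0.1, the smallest that 3 against 3 libraries allow). That test took no account of the Sets. Without the siControl library of Set 3 the difference was -0.08.

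KRT19, a small type I keratin of simple epithelia, lies on the minus strand of chromosome 17 from 39679869 to 39684560. It had 641, 657 and 627 CPM in siControl and 677, 694 and 751 CPM in siNONO. In CPM the groups did not overlap, but the gap between them was narrow. The log2 fold change was 0.14 (SE 0.0364, adjusted p = 0.00731, edgeR), a rise of about 1.10-fold. The Sets gave 0.08, 0.08 and 0.26, so the rise was largest in Set 3. Without the siNONO library of Set 3 the log2 fold change was 0.0788, and without the siControl library of Set 3 it was 0.0819, both still called (adjusted p = 0.00805 and 0.0117, edgeR). On the log2(TPM + 1) scale, where a transcript's level is per length, the difference was 0.04 and was not called (adjusted p = 0.507, limma). The TPM of Sets 1, 2 and 3 was 788.2, 788.6 and 765.1 in siControl and 783.7, 776.5 and 858.0 in siNONO. On that scale the groups overlapped, with Sets 1 and 2 slightly lower in siNONO and Set 3 higher. The length that RSEM gave KRT19 varied little, from 1356 to 1367 bases over the libraries. Changes in limma's fit lay lower in general, with a median of -0.0714 over the genes tested, where edgeR's fit had -0.0048. What removed the call of KRT19 was not tested.

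Among the keratins of lower level, KRT20 had the largest rise on the log2 scale. KRT20 marks differentiated cells of the intestinal epithelium, and its gene runs from 39032141 to 39041494 on the minus strand of chromosome 17. Its counts were low: in siControl, Sets 1, 2 and 3 gave 70, 50 and 41, and in siNONO the same Sets gave 123, 92 and 114. In CPM these were 2.12, 1.83 and 1.87 against 4.30, 3.31 and 4.08. Every siNONO library lay above every siControl library. The log2 fold change was 1.00 (95% interval from 0.64 to 1.36, adjusted p = 0.000286, edgeR), and 3.32% of all genes tested changed by as much in either direction. The Sets gave 0.99, 0.83 and 1.10.

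Because KRT20 had the largest log2 change of the 8 and no 50-base window of its transcript occurred in another gene, the 250 bases before its start are shown. They come from RefSeq on GRCh38.p14, at chr17:40885243-40885492 on the minus strand. Of the 8 keratins, KRT20 and KRT8 were in the promoter table used. Capitals mark the letters TTTAT or their reverse complement, the core that factors of the CDX family recognise.
KRT20 promoter: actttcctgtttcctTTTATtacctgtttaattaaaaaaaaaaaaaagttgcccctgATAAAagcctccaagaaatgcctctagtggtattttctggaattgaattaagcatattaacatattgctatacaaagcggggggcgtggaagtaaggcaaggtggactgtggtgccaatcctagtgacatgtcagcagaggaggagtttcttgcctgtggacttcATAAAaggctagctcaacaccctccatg

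The letters TTTAT occurred 3 times in this window on either strand, beginning 235, 193 and 28 bases before the start. At least 1 such match was present in 32.7% of 35116 promoter windows of the same length, so it is common. The letters TATAAA (10.7% of windows), TGANTCA of AP-1 (6.6%) and GAAANNGAA of interferon regulatory factors (6.9%) were not matched in the window of KRT20, searched on both strands. CACCC, a KLF-type core found in 54.7% of windows, matched once, beginning 11 bases before the start. A match in letters is a description of the sequence and not evidence of binding. CDX2, the colonic factor that reads such cores, had 14.1 CPM in siControl and 14.3 CPM in siNONO (log2 fold change 0.02, adjusted p = 0.864, edgeR).

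KRT23, a type I keratin, neighbours KRT20 on chromosome 17, from 39078952 to 39093898 on the minus strand. It had 48.7, 44.7 and 44.1 CPM in siControl and 81.1, 70.1 and 74.7 CPM in siNONO. The gap between the groups was several times the spread within them. The log2 fold change was 0.72 (SE 0.0414, adjusted p = 3.76e-08, edgeR), or 1.64-fold, the lowest adjusted p of the 8. Of all genes tested, 7.93% changed by as much.

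KRT7, a type II keratin of ductal epithelia, lies on the plus strand of chromosome 12 from 52626304 to 52645970. Its counts were 269.9, 199 and 193 in siControl and 347, 296 and 367 in siNONO, or 8.19, 7.27 and 8.80 against 12.1, 10.6 and 13.1 CPM. The siNONO libraries were all higher. The log2 fold change was 0.56 (SE 0.0796, adjusted p = 8.31e-05, edgeR), and the Sets lay close together at 0.56, 0.55 and 0.57. KRT7 overlaps the antisense gene KRT7-AS, which had at most 9.39 counts in a library. In the gene models used here it also overlaps KRT86 on the same strand, with at most 7.92 counts in a library, and KRT87P on the opposite strand.

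KRT15, a type I keratin of basal cells, runs from 39669997 to 39678781 on the minus strand of chromosome 17. It had 17.4, 16.3 and 16.04 CPM in siControl and 10.9, 10.6 and 12.6 CPM in siNONO. All siNONO libraries were lower, with a log2 fold change of -0.55 (SE 0.0790, adjusted p = 9.47e-05, edgeR), which left 0.682 of the siControl level. The fall was 0.68, 0.61 and 0.34 on the log2 scale in Sets 1, 2 and 3, so Set 3 showed the smallest.

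KRT80, a type II keratin on the minus strand of chromosome 12 from 52562780 to 52585798, showed the largest fall. Its counts were 360, 220 and 217 in siControl and 139, 127 and 180 in siNONO, for Sets 1, 2 and 3. In CPM these were 10.9, 8.03 and 9.89 against 4.86, 4.57 and 6.44. The groups did not overlap. The log2 fold change was -0.87 (95% interval from -1.12 to -0.62, adjusted p = 4.84e-05, edgeR), and it spread from -1.16 in Set 1 to -0.61 in Set 3.

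**Figure D2:**
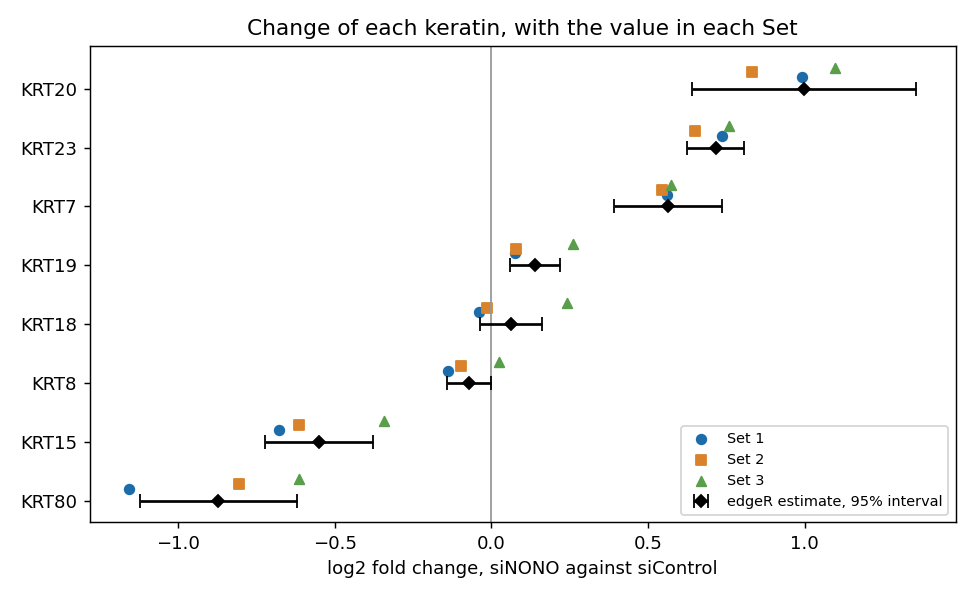
Log2 fold change (siNONO against siControl) of each keratin: diamonds and bars are edgeR's estimate with its 95% interval, and coloured symbols are the 3 Sets. KRT20, KRT23 and KRT7 stand between 0.56 and 1.00, KRT15 and KRT80 at -0.55 and -0.87, and KRT8, KRT18 and KRT19 within 0.14 of 0.

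In TPM, which is scaled for transcript length and so allows levels to be compared between genes, the keratins fell into 2 ranges far apart. In siControl, KRT8 had 1252 ± 46.8, KRT19 781 ± 13.4 and KRT18 617 ± 31.1 TPM (SD, n = 3), and these 3 genes made up at least 97.2% of the keratin TPM in each siControl library. The other 5 followed as KRT23 at 43.7 ± 0.803, KRT15 at 16.1 ± 1.18, KRT7 at 9.93 ± 1.37, KRT80 at 3.79 ± 0.682 and KRT20 at 1.71 ± 0.163 TPM. No neighbours in this order overlapped between libraries. In siNONO, neighbours exchanged places in 2 cases.

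KRT7 at 14.1 ± 2.58 TPM stood above KRT15 at 9.85 ± 0.937 TPM in siNONO. The TPM of KRT15 was 1.853, 1.801 and 1.303 times that of KRT7 in siControl, and 0.716, 0.757 and 0.639 times in siNONO. Likewise KRT20 at 3.23 ± 0.486 TPM stood above KRT80 at 1.96 ± 0.367 TPM. KRT80 had 2.32, 1.93 and 2.39 times the TPM of KRT20 in siControl, and 0.504, 0.631 and 0.702 times in siNONO. Both exchanges were seen in all 3 Sets, and as the pairs were chosen from these values no test is given. The 3 abundant keratins kept the same order, at 1116 ± 80.7, 806 ± 45.1 and 605 ± 41.1 TPM for KRT8, KRT19 and KRT18.

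**Figure D3:**
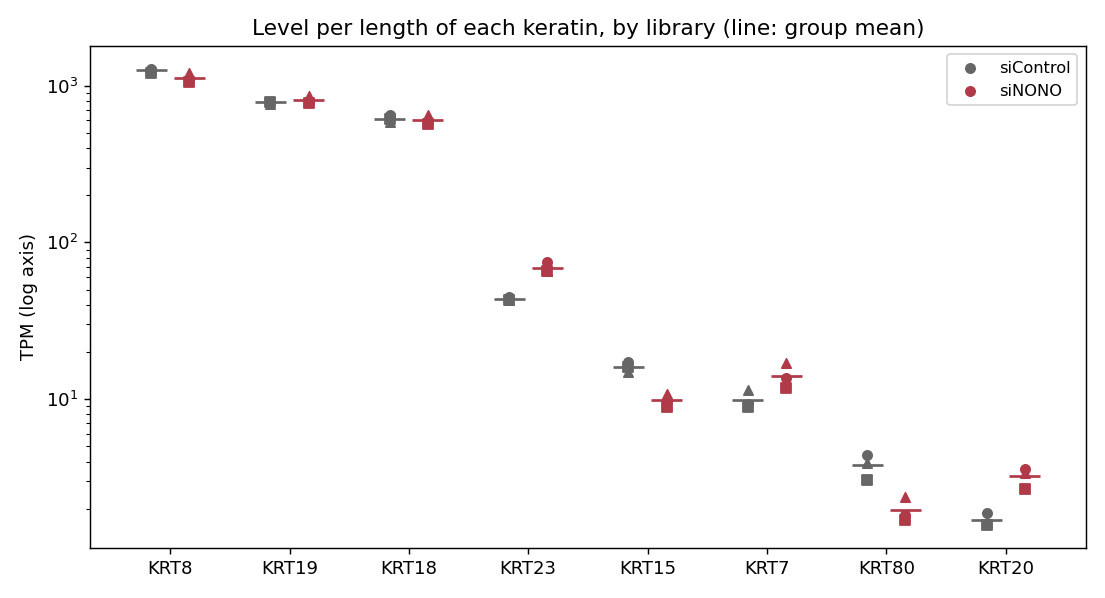
TPM of each keratin on a log axis, with 1 symbol per library, its shape marking the Set (circle 1, square 2, triangle 3), and a line at each group mean (siControl grey, siNONO red). KRT8, KRT19 and KRT18 lie between 568 and 1281 TPM and the others at or below 75.5 TPM, and KRT7 passes KRT15, and KRT20 passes KRT80, in siNONO.

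The total keratin level moved little. The 8 genes summed to 2798, 2670.2 and 2705 TPM in siControl and 2578, 2485 and 2813 TPM in siNONO, which overlap. Within this total, the type II genes KRT7, KRT8 and KRT80 took 46.3%, 45.3% and 47.7% in siControl and 42.9%, 42.8% and 43.6% in siNONO. The share was lower in every siNONO library, by 3.34 percentage points on average (46.4 ± 1.22% against 43.1 ± 0.403%, SD, n = 3; exact permutation test, two-sided p = 0.1, the smallest possible here). This test, too, took no account of the Sets. KRT8 supplied nearly all of the type II level, so this share and the ratio of KRT8 to KRT18 both rest on KRT8 and are not independent. The type I level also holds KRT19, which had more TPM than KRT18 in both groups and is not part of that ratio.

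**Figure D4:**
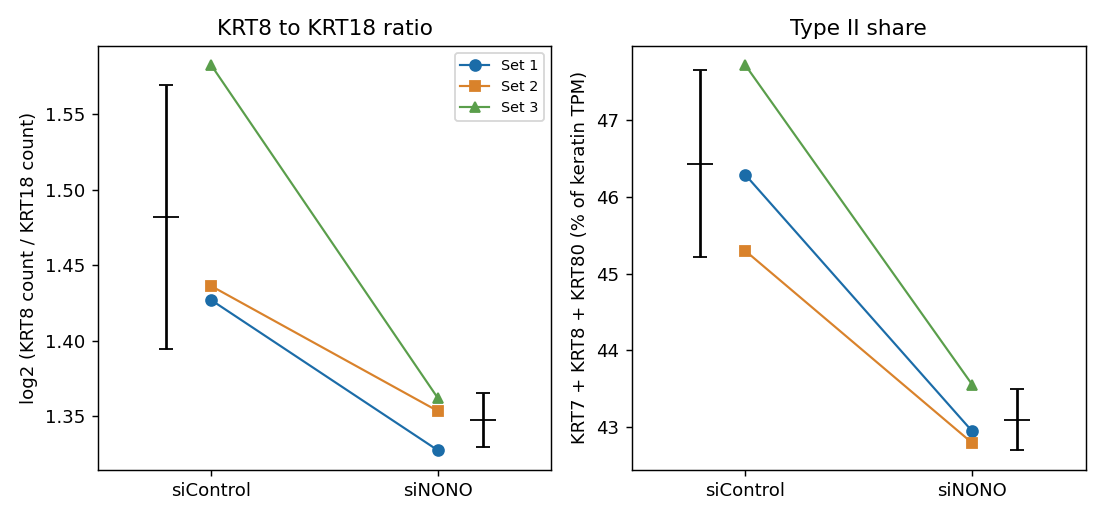
Left, log2 ratio of KRT8 to KRT18 counts; right, share of the type II genes KRT7, KRT8 and KRT80 in the keratin TPM, in percent. Lines join libraries of a Set, bars show mean and SD (n = 3), and neither axis starts at 0; both measures are lower in each siNONO library than in any siControl library.

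Keratin genes next to each other did not always change in the same direction. KRT15 and KRT19 are next to each other on chromosome 17 with 1087 bases between them. In edgeR's fit KRT15 fell (-0.55) while KRT19 rose (0.14), a rise that was not called on the log2(TPM + 1) scale. KRT80 and KRT7 are separated by 40505 bases of chromosome 12 with no protein-coding gene between, and KRT80 fell (-0.87) while KRT7 rose (0.56). KRT20 and KRT23, with 37457 bases between them and no protein-coding gene, both rose (1.00 and 0.72). Each direction occurred in type I and in type II, since KRT7 is type II as is KRT80, and KRT20 is type I as is KRT15.

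KRT8, KRT18 and KRT19 have processed pseudogenes, copies of the mRNA that sit elsewhere in the genome and can share reads with the parent. Symbols of this kind numbered 51 for KRT8, 67 for KRT18 and 5 for KRT19. In the gene models used here, 39.2% of 50-base windows of the canonical KRT8 transcript and 54.3% of those of KRT18 occurred on either strand in a transcript of another gene. With 100-base windows these shares were 7.12% and 21.0%. KRT18 also shares 1084 bases of its locus with longer KRT8 transcripts on the opposite strand, and the strand setting of the counting was not stated in the sources used here. By contrast, the 50-base share was 1.02% for KRT15, 1.79% for KRT19, 0.42% for KRT80, 4.44% for KRT23, 11.7% for KRT7 and 0 for KRT20.

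The reads given to these pseudogenes were few. They amounted to between 1.15% and 1.52% of the joint count for KRT8, between 0.143% and 0.274% for KRT18 and at most 0.0103% for KRT19. KRT8P3, whose sequence is 97.1% identical to KRT8, held most of them: its siControl libraries had 484, 390.2 and 219.7 counts and its siNONO libraries 364, 385 and 404 (log2 fold change 0.07, adjusted p = 0.653, edgeR). The other pseudogenes with an average of at least 10 counts per library were KRT8P12, KRT8P33, KRT8P35, KRT8P36, KRT8P45 and KRT8P46. With KRT8P3 these make 7, and none was called, beside 46.6% of all genes tested. With the pseudogene counts added to the parent, the same 4 keratins rose and the same 2 fell, and the log2 ratio of KRT8 to KRT18 differed by -0.13 as before.

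Few keratins outside the 8 had enough reads to be tested. Of 24 other type I genes, 4 had enough counts to be tested, and of 23 other type II genes only KRT81 did. None of these 5 passed the test in edgeR's fit, where 46.6% of all genes tested were called. KRT10, a keratin of suprabasal epidermis, had 19.8 CPM in siControl and 18.2 CPM in siNONO (log2 fold change -0.12, adjusted p = 0.180). Its level per length in siControl, 33.7 TPM, was above those of KRT15, KRT7, KRT80 and KRT20. KRT13, of mucosal stratified epithelia, had 3.43 and 2.72 CPM (-0.34, adjusted p = 0.119). KRT222 and KRT32 had log2 fold changes of -0.02 and 0.19, with adjusted p = 0.948 and 0.653. KRT81, a hair keratin with 13.2 counts on average, was at 1.22 (adjusted p = 0.0565). No count was seen in any library for 6 of the other type I and 10 of the other type II genes.

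Genes of the structures that hold keratin filaments changed in both directions. In the desmosome list, 8 of 13 genes were tested, and 3 were higher and 3 lower, where 23.2% of all genes tested were called higher and 23.4% lower. DSP (desmoplakin), which ties keratin filaments to the desmosome, rose by 0.24 on the log2 scale (adjusted p = 2.12e-05, edgeR), and JUP (plakoglobin) by 0.16 (adjusted p = 0.00221). DSC2, a desmosomal cadherin, fell by 0.24 (adjusted p = 0.000186), and PERP, a membrane protein of the desmosome, fell by 0.34 (adjusted p = 1.11e-05). The median of the list was -0.02.

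In the list of plakins and keratin linkers all 14 genes were tested, with 5 higher, 4 lower and a median of 0.06, beside the 46.6% of all genes called. COL17A1, a collagen of the hemidesmosome, rose by 0.68 (adjusted p = 0.00400, edgeR) and EPPK1 (epiplakin), which binds keratins, by 0.41 (adjusted p = 1.52e-05). SFN (14-3-3 sigma) rose by 0.57 (adjusted p = 5.95e-08). PPL (periplakin) fell by 0.43 (adjusted p = 1.30e-06). Among the other cytoplasmic intermediate filament genes, 8 of 13 were tested, and by edgeR's test 0 were higher and 3 lower, against 23.2% and 23.4% of all genes. The 3 that fell were VIM (vimentin, the filament of mesenchymal cells), from 9.48 to 6.17 CPM (log2 fold change -0.62, adjusted p = 0.000284), SYNM (synemin) at -0.59 (adjusted p = 1.06e-05) and SYNC (syncoilin) at -0.40 (adjusted p = 0.000297). The median of that list was -0.30.

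Genes of epithelial identity were more often higher than lower. All 14 were tested, and 9 rose and 2 fell in edgeR's fit, with a median log2 fold change of 0.27, beside the 23.2% and 23.4% of all genes that did so. The tight junction genes CLDN7 and OCLN rose by 1.09 and 0.68 (adjusted p = 2.84e-09 and 1.06e-07), and the polarity gene CRB3 by 0.54 (adjusted p = 0.000450). EPCAM rose from 191 to 238 CPM (0.32, adjusted p = 3.52e-06), while CDH1 stood at 107 CPM in both groups (-0.00, adjusted p = 0.985). The genes that fell were ESRP1 and ESRP2, epithelial splicing regulators, at -0.54 and -0.19 (adjusted p = 1.13e-07 and 0.00177), named after their values were seen.

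Of 19 epithelial transcription factors 15 were tested, with 7 higher, 2 lower and a median of 0.17, beside 23.2% higher and 23.4% lower of all genes tested. EHF, an ETS factor of epithelia, rose by 0.98 (adjusted p = 2.61e-10, edgeR), OVOL1 by 0.91 (adjusted p = 9.02e-07), the endodermal factor GATA6 by 0.68 (adjusted p = 3.89e-05) and FOXA1 by 0.58 (adjusted p = 0.00688). The factors that fell were ELF3 at -0.58 and KLF5 at -0.34 (adjusted p = 3.03e-07 and 0.000340), also named after their values were seen. In the mesenchymal list, 8 of 12 were tested, with 0 higher, 3 lower and a median of -0.15, beside the same shares of all genes. ZEB1, a repressor of epithelial genes, fell from 16.045 to 7.70 CPM (log2 fold change -1.06, adjusted p = 3.71e-07), and FN1 (fibronectin) fell by 0.17 (adjusted p = 0.00903). S100A4 was called at -0.23 (adjusted p = 0.00734), and was named after its values were seen, since its direction was not the same in every Set.

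Genes of colonic differentiation other than KRT20 were mostly silent. Of 16 such genes 8 had 0 counts in every library. Of the 2 tested, 1 was called higher and 1 lower, beside 23.2% and 23.4% of all genes tested. CA2, a carbonic anhydrase of colonocytes, rose from 16.7 to 37.8 CPM (1.18, adjusted p = 9.55e-09, edgeR). CDHR5, a brush border protocadherin named after its values were seen, fell from 0.829 to 0.391 CPM (-1.06, adjusted p = 0.0242).

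Markers of fibroblasts, blood and endothelium summed to between 38.6 and 45.3 CPM in siControl and between 43.97 and 50.5 CPM in siNONO. Of the 16 found, 4 were tested and 1 was called, beside the 46.6% of all genes tested that were called. COL1A2 was at 0 in every library. The sum was mostly COL1A1, at 37.9 and 38.5 CPM. The one called was CD68, a lysosomal protein abundant in macrophages, which rose from 1.96 to 5.21 CPM (1.40, adjusted p = 1.80e-05, edgeR). All libraries were of the HCT116 cell line, and the source of these reads was not tested.

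**Figure D5:**
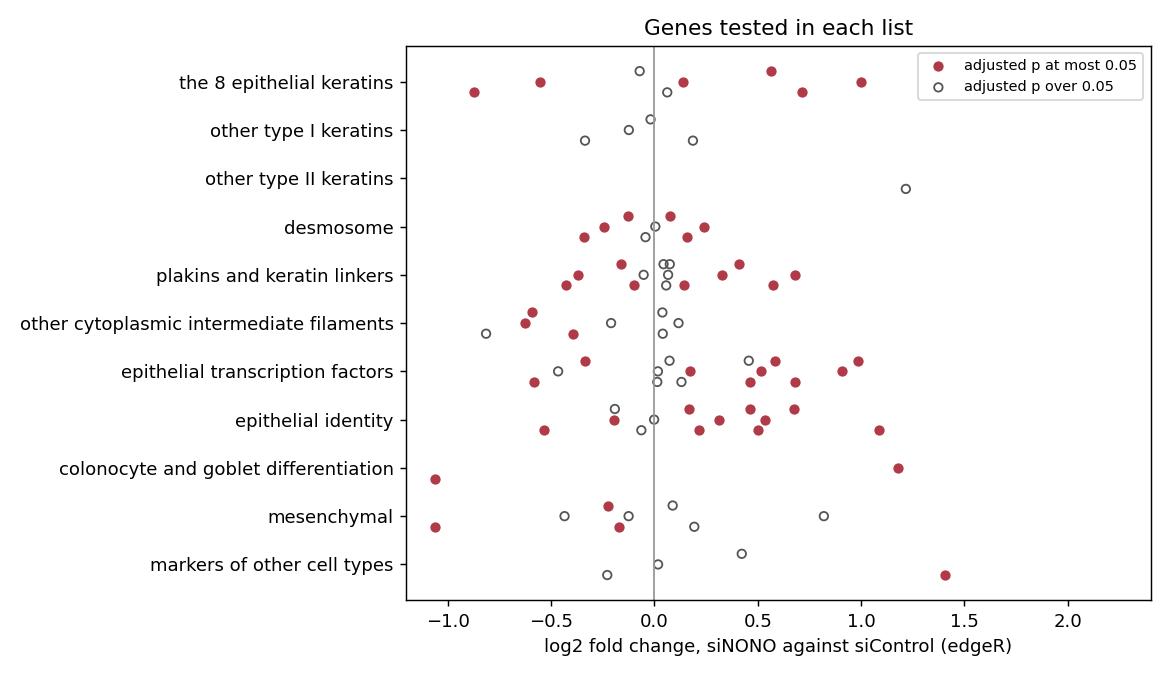
Log2 fold change (siNONO against siControl, edgeR) of the tested genes in each list, 1 symbol per gene, with 1 gene of the epithelial identity list not drawn; filled red symbols have an adjusted p of at most 0.05 and open symbols do not, and vertical offsets only separate the symbols. The keratins spread from -0.87 to 1.00.

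Over the 6 libraries, the log2 CPM of KRT8 and KRT18 had a Pearson r of 0.29, and those of KRT18 and KRT19 an r of 0.78. In a comparison limited to the 6597 genes whose mean log2 CPM was 5 or more, those most like KRT8 were PIAS4, NSUN5P1 and GTPBP3 (r from 0.98 to 0.99), and those most like KRT18 were NDUFA1, RPS27A and MAFK (r from 0.93 to 0.95). The 6 libraries share 2 treatments and 3 Sets, so these values describe likeness in few points only.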

How the data were processed

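RNA-seq data of 3 siControl and 3 siNONO libraries of HCT116 cells were used. After trimming, the authors used STAR and the GENCODE version 34 annotation of GRCh37, and deposited RSEM (version 1.3.1) estimated counts, which are not normalized and need not be whole, for each gene. The deposited TPM values were scaled by RSEM for effective length and library size. Gene IDs were matched before the dot to symbols, which 62211 of 62492 genes had, and PECAM1 had no row.

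Counts were rounded and tested with edgeR (version 4.0.16, quasi-likelihood test in the form of edgeR 3), TMM, filterByExpr and the Set as a block, since the study adjusted for batch, with Benjamini-Hochberg adjustment over all genes tested. Each SE was derived from the fold change and its F statistic. The log2 changes of single Sets were taken from log2 CPM with a small prior count. The series calls the libraries biological replicates but does not say that they came from separate cultures. The p-values therefore measure only the spread between these libraries that is left after the block removes differences between Sets. In that fit the biological coefficient of variation was 3.51%. No pair of replicates agreed within sampling noise. Counts were also simulated for siNONO against siControl, with 200 genes changed, no differences between Sets and a spread taken from the fit. Among the 16744 genes tested there, 97.3% of 75 genes changed 2-fold at 2 CPM or more were recovered. The shares were 81% of all genes changed 2-fold and 62% of those changed 1.5-fold, with 2 false calls in all. In the data 46.6% of genes were called, so these 2 false calls do not give the error rate of the real calls.

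The 8 keratins, the other lists and the tests were chosen with earlier results of these data known. Named genes were the 8 keratins, NONO, other keratins and keratin pseudogenes tested with at least 10 counts on average, EPCAM, CDH1, VIM and CDX2, and from each list up to 4 called genes of largest change whose mean log2 CPM was 1 or more and whose direction was the same in all Sets; 1 gene that this rule names is not reported here. Gene models were those of GENCODE version 44 on GRCh37. Alternatives were no block, DESeq2 (version 1.42.0), DESeq2 size factors in edgeR, library size alone, no filter or a stricter one, the edgeR 4 form, limma (version 3.58.1) on log2(TPM + 1) and log2(TPM + 0.1), pseudogene counts added to the parent, and each library left out in turn.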

Additional observations from a re-analysis of the deposited data

How the results depend on the processing

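KRT7, KRT15, KRT20, KRT23 and KRT80 kept their direction and stayed past the threshold in all 16 alternatives. KRT20 ran from 0.64 to 1.08, KRT23 from 0.64 to 0.76, KRT7 from 0.46 to 0.58, KRT15 from -0.71 to -0.48 and KRT80 from -1.004 to -0.69. KRT19 lost its call with limma on log2(TPM + 1) and log2(TPM + 0.1) alone (adjusted p = 0.507 and 0.504). KRT18 was reversed there, at -0.0286 in both, and without either library of Set 3, in no case called, and with each library left out in turn it ran from -0.0258 to 0.1183. It was called higher only without a filter on low counts, at 0.08 (adjusted p = 0.0304, edgeR). KRT8 was called lower in 5 alternatives, at -0.09 with library size alone, at -0.17 in both limma fits and without either library of Set 3. Its adjusted p-values ran from 0.000295 to 0.657. The number of keratins called was 6 or 7 throughout.

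The number of changed genes was 5227 with DESeq2, 5257 with limma on log2(TPM + 1) and 5250 with limma on log2(TPM + 0.1), against 7924, and the cause was not tested. On log2(TPM + 1) 31.3% of calls were higher, against 49.7%, the median of all genes was -0.07, and the keratins were called 3 higher and 3 lower. The list genes called there were 16 higher and 17 lower, against 26 and 18. Without the replicate block 6164 genes and the same number of keratins, 6, were called. Same-numbered libraries had correlations of deviations across 13340 genes of 0.22, 0.0612 and 0.278 in Sets 1, 2 and 3, so Set 2 gives no clear sign of pairing. Without each library in turn, 6497 to 7653 genes, 6 to 7 keratins and 38 to 47 list genes were called, the KRT8 to KRT18 difference ran from -0.16 to -0.08 and that of the type II share from -3.91 to -2.70. Few reads limit KRT20, KRT7 and KRT80.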

Other observations

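Of the keratins outside the 8, 26 had reads but too few to be tested. Mean CPM was higher in siNONO for 16 of them and lower for 10, and for 20 the libraries of the groups overlapped. For the other 6 every siNONO library was above every siControl library, and for 0 the reverse held. Among all 15118 genes with reads that were not tested, 3.27% were higher in this way and 4.45% lower, and such shares depend on how many reads a gene has. The 6 were KRT6B, KRT16, KRT35, KRT38, KRT40 and KRT83, named after their values were seen, with at most 17 counts in a library. KRT16, a keratin of activated epidermis, was at 6, 4 and 3 counts with siControl and at 11, 9 and 13 with siNONO for Sets 1, 2 and 3. KRT40 had 0 counts in each siControl library and 3, 2 and 5 in siNONO. The basal epidermal keratins KRT5 and KRT14 overlapped, KRT5 with 2, 6 and 5 counts against 6, 2 and 2, and KRT14 with 5, 1 and 0 against 0, 0 and 4. KRT3, a corneal keratin, was at 3, 3 and 0 counts with siControl and at 1, 0 and 0 with siNONO, and KRT36 at 6, 9 and 5 against 8, 4 and 10.

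The gene length that RSEM gives is a mean over isoforms weighted by their abundance in a library, so it moves when isoforms are estimated in other proportions. For KRT7 it ran from 1287 to 1451 bases in siControl and from 1234 to 1399 in siNONO, which overlap. For KRT15 it ran from 1601 to 1721 bases in siControl and from 1698 to 1755 in siNONO. For KRT8, KRT18 and KRT19 the 6 libraries lay within a narrow range, such as 1848 to 1873 bases for KRT8. KRT20 was at 1804 bases in every library.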
